A study of Mus musculus with 14 samples.

Results

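Tight junctions are the seals between neighboring epithelial cells at the upper end of their lateral membranes. RNA of 9 genes that build them was described here in mouse small intestinal organoids (sIOs), as sampled by APEX-seq. The genes were taken by name: the claudins Cldn2, Cldn15, Cldn3, Cldn4, Cldn7 and Cldn23, the membrane protein occludin (Ocln), the junctional adhesion molecule JAM-A (F11r) and the scaffold protein ZO-1 (Tjp1). All 9 symbols were found among the 55401 genes of the count table, and all 9 passed the filter on low counts in each comparison. The question was whether their RNA differed between the apical and the cytoplasmic baits, and how the crypt claudin Cldn2 stood against the claudins of more mature epithelium.

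APEX2 is a peroxidase that tags nearby RNA with biotin when biotin-phenol and H2O2 are supplied, and the tagged RNA is then captured on streptavidin beads and sequenced. The sIOs were grown in Matrigel from crypts of the mouse small intestine and carried lentiviral APEX2 fusions. APEX2-DPP4 placed the enzyme at the apical membrane, and APEX2-GFP and APEX2-ACTB placed it in the cytoplasm. Each of these 3 baits had 4 libraries, written here as DPP4-1 to DPP4-4, GFP-1 to GFP-4 and ACTB-1 to ACTB-4. A mitochondrial fusion, MITO-V5-APEX2, had 1 library named MITO-1 and 1 named MITO-1c. The study labeled such sIOs with H2O2 and kept controls without it, and the labels do not say which of these libraries is which. The mice were adults of both sexes of the strain C57BL/6 J. The promoter that drove the fusions is not given in the sources used here, and whether the 4 libraries of a bait stem from separate cultures is not stated either, so p-values measure a spread that may be technical.

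Claudins are membrane proteins whose outer loops meet those of the next cell and decide which ions pass between cells. Claudin-2 and claudin-15 form channels for small cations in the small intestine. Claudin-2 is typical of crypts and claudin-15 is found along the crypt and the villus. Claudin-3, claudin-4 and claudin-7 are counted among the sealing claudins, occludin and JAM-A span the membrane beside them, and ZO-1 ties the strands to actin. A tight junction can change its permeability with its mix of claudins while the scaffold stays in place.

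Depth was 9442594 to 36492010 counts per library, with 12708 to 18122 genes at 10 or more counts. DPP4-4 and GFP-4 held 31.9% and 30.9% of the median depth. The sum of 9 epithelial markers was 3539 to 11056 normalized CPM in the 12 libraries of DPP4, GFP and ACTB, whereas 7 mesenchymal markers summed to at most 32.5, 6 immune markers to at most 73.6 and 5 endothelial markers to at most 10.3 normalized CPM. Normalized CPM are counts scaled to a common library total, with the totals adjusted by TMM over these 12 libraries. The sum of 11 enterocyte markers ran from 189 in ACTB-4 to 102579 in DPP4-1 and was lowest in ACTB-4, ACTB-3, GFP-1, DPP4-4 and ACTB-1, where it stayed at 2022 or less against 4343 or more in the other 7 libraries. The libraries of each bait therefore differed widely in their enterocyte marker RNA. In such bulk libraries fewer cells of a type, less RNA per cell and differences between preparations cannot be told apart.

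The stretches before the RefSeq starts of the 4 claudins that varied most are shown because Cldn15 and Cldn3 varied together across libraries while Cldn4 and Cldn2 did not follow them. Of the 9 genes, 8 had a promoter in the RefSeq table of GRCm38.p6. Each line gives the first 225 of the 250 bases before RefSeq's start, read 5′ to 3′ on the strand of the gene, with matches to the searched motifs in capitals.

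Cldn2 (chrX:139800558-139800782, + strand): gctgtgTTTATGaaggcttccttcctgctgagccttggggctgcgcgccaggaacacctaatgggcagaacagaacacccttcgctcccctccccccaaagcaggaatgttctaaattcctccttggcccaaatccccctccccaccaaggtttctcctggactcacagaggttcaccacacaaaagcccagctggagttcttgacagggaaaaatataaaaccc
Cldn15 (chr5:136967619-136967843, + strand): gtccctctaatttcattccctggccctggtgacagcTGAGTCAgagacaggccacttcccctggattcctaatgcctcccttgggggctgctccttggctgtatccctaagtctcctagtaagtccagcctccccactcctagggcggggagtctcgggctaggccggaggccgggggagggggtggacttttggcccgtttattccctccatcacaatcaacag
Cldn3 (chr5:134985964-134986188, + strand): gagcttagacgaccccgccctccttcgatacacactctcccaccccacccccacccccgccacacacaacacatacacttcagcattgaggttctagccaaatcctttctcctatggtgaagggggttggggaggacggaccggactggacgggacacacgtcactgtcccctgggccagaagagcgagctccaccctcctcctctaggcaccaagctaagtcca
Cldn4 (chr5:134946960-134947184, - strand): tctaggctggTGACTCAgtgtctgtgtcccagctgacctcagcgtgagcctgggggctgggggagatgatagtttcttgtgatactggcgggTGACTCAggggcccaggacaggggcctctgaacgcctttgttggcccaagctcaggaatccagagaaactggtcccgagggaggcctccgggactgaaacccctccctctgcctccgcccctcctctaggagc

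The 250 bases before each start were searched on both strands for short motifs of factors that act in the gut lining. The motif of CDX factors, which set intestinal identity, was searched as TTTATG. Cldn2 held 1 such match that began 244 bases before the start, and 10.8% of 32851 promoters of the same length held it. The motif of AP-1, a factor of injury and growth responses, was added after the sequences had been read and was searched as TGAGTCA. Cldn15 held 1 such match at 214 bases before the start, and Cldn4 held 2, at 240 and 158 bases. All promoters held it in 4.46% of cases and held it at least 2 times in 0.167%. Cldn3 had none of the motifs searched in this window. For the zinc finger proteins of the GATA family the letters were AGATAA, held by 9.99% of all promoters. For the homeobox protein HNF1 the letters were GTTAAT, held by 6.43%. For the Wnt effectors TCF and LEF the letters were CTTTGAT, held by 3.21%. For the nuclear receptor HNF4 the letters were CAAAGTCCA, held by 0.384%. None of these last 4 motifs was found in the windows shown. A match is a run of letters and was not tested as a binding site.

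In GRCm38, the annotation places Cldn2 (ENSMUSG00000047230.6) on chromosome X at 139800828 to 139811386, plus strand, and Cldn15 (ENSMUSG00000001739.14) on chromosome 5 at 136966616 to 136975858, plus strand. The RefSeq start of Cldn15 used for its stretch lies inside this span, downstream of the start of the gene in the annotation, so that the stretch printed for it falls within the annotated gene. Cldn15 shares chromosome 5 with Cldn4 (ENSMUSG00000047501.3) at 134945119 to 134946934, minus strand, and Cldn3 (ENSMUSG00000070473.4) at 134986214 to 134987472, plus strand. Cldn4 and Cldn3 are neighbors that are transcribed away from each other. Their starts lie 39.28 kb apart with 0 annotated genes wholly between them. Each is a gene of 1 exon, as is Cldn23 (ENSMUSG00000055976.6) on chromosome 8 at 35824712 to 35826559, minus strand. The annotation places Cldn7 (ENSMUSG00000018569.12) on chromosome 11 at 69964779 to 69967885, plus strand, and Ocln (ENSMUSG00000021638.12) on chromosome 13 at 100496507 to 100552718, minus strand. It places F11r (ENSMUSG00000038235.4) on chromosome 1 at 171437535 to 171464603, plus strand, and Tjp1 (ENSMUSG00000030516.14) on chromosome 7 at 65296165 to 65527781, minus strand, with 9 and 31 blocks of exon. The end of Cldn3 overlaps the antisense gene Wbscr25, and 3 small annotated loci lie within Tjp1, so reads there could be lost or shared. Of the 75-base windows in the transcripts of each gene, 0 were found in another gene except for F11r, where 5 windows or 0.188% were.

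Cldn15, Cldn3, Cldn4 and Cldn2 varied far more between libraries than the genes of occludin, JAM-A and ZO-1 did, and they did so within every bait. Over the 12 libraries the highest value was 7477 times the lowest for Cldn15, 95.2 times for Cldn3, 34.2 times for Cldn4 and 12.5 times for Cldn2. It was 6.55 times for Cldn7 and 5.28 times for Cldn23, and only 4.2 times for Tjp1, 3.72 times for F11r and 2.58 times for Ocln. The SD of log2 normalized CPM within baits was 3.75 for Cldn15, above that of 99.5% of 9714 genes that averaged 10 normalized CPM or more, whose median SD was 0.90. Cldn3 had an SD of 2.12 and Cldn4 of 1.69, above 92.5% and 86.2% of these genes. Ocln and F11r were among the steadier genes, with SDs of 0.47 and 0.50 that exceeded only 6.43% and 9.02% of them.

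**Figure D1:**
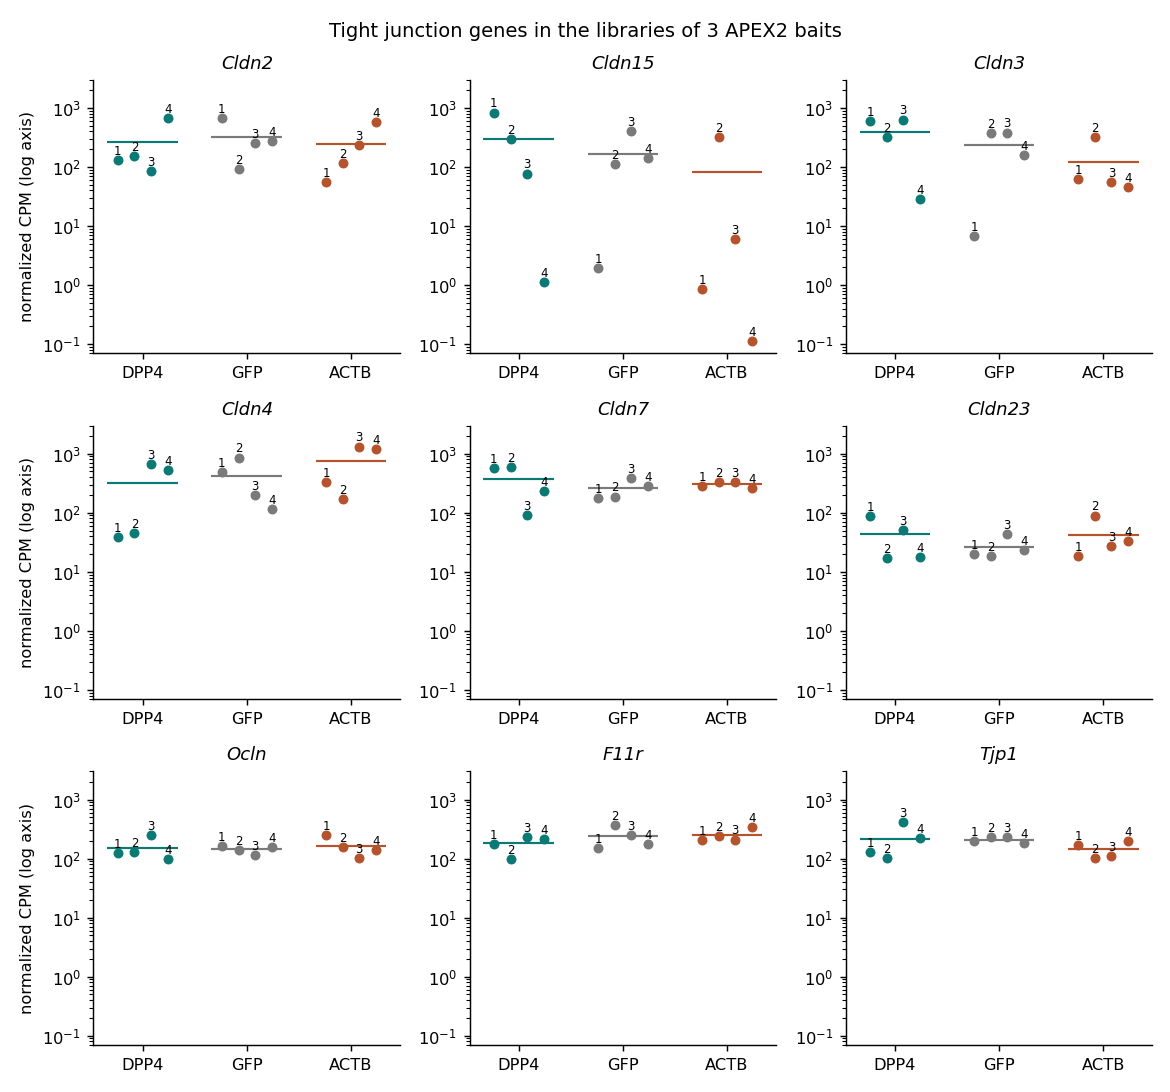
Normalized CPM on a log axis of each of the 9 genes in the 12 libraries of the DPP4, GFP and ACTB baits, with the replicate number above each point and a line at the mean of each bait. Cldn15 spans 0.112 to 834 and Cldn3 spans 6.67 to 635, whereas Ocln stays between 97.5 and 251.

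Among the pore-forming claudins, Cldn2 was measured at 130.5, 152, 84.6 and 684 normalized CPM in DPP4-1 to DPP4-4. In GFP-1 to GFP-4 it stood at 667, 91.5, 255 and 275, and in ACTB-1 to ACTB-4 at 54.6, 115, 239 and 571. Each bait held 1 library far above its others, namely DPP4-4, GFP-1 and ACTB-4, and the 3 baits overlapped throughout. The means were 263 ± 282 for DPP4, 322 ± 244 for GFP and 245 ± 230.5 for ACTB (SD, n = 4).

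Cldn15, the other cation channel, was measured at 834, 299.9, 77.4 and 1.12 normalized CPM in DPP4-1 to DPP4-4. The GFP libraries stood, in the same order, at 1.92, 112, 409 and 144, and in ACTB-1 to ACTB-4 at 0.867, 323, 5.93 and 0.112. It was thus nearly missing from 5 libraries, DPP4-4, GFP-1, ACTB-1, ACTB-3 and ACTB-4, and present at 77.4 or more in the other 7. The lowest value, in ACTB-4, rested on 4 counts and the highest on 17990. The mean was 303 ± 376 for DPP4, 167 ± 173 for GFP and 82.6 ± 161 for ACTB (SD, n = 4), with the SD larger than the mean in each bait.

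Of the sealing claudins, Cldn3 was measured at 593, 316, 635 and 28.6 normalized CPM in DPP4-1 to DPP4-4. It stood at 6.67, 382, 383 and 158 in GFP-1 to GFP-4, and in ACTB-1 to ACTB-4 at 61.4, 319, 54.8 and 46.3. Its 5 lowest libraries were the same 5 in which Cldn15 was lowest, and they were also the 5 with the lowest sums of enterocyte and of goblet cell markers. The part of cell composition in these levels was not tested. The mean was 393 ± 281 for DPP4, 232 ± 184 for GFP and 120.4 ± 133 for ACTB (SD, n = 4), and the ranges of the baits overlapped.

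Cldn4 was measured at 38.6, 45.9, 677 and 526 normalized CPM in DPP4-1 to DPP4-4. For GFP it stood at 486, 862, 201 and 115, and in ACTB-1 to ACTB-4 at 329, 173, 1322 and 1197. None of its 5 lowest libraries was among the 5 lowest for Cldn15 and Cldn3. It was highest in ACTB-3 and ACTB-4, where 8 markers of fetal or regenerative epithelium, a state of the gut lining seen before birth and after injury, summed to 25647 and 28291 normalized CPM. Clu was the largest member of this sum, averaging 13973 normalized CPM in ACTB beside 550 for Ly6a, the next highest there. The same sum was 38.1 in DPP4-1 and 14.1 in DPP4-2, where Cldn4 was lowest. The match was not general, since GFP-2 had the third highest Cldn4 at a sum of 61.7, and GFP-1 had a Cldn4 of 486 at a sum of 7994. The mean of Cldn4 was 322 ± 329 for DPP4, 416 ± 337 for GFP and 755 ± 588 for ACTB (SD, n = 4).

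Cldn7, which is also found along the lateral membrane, was measured at 576, 601, 91.7 and 236 normalized CPM in DPP4-1 to DPP4-4. For GFP it stood at 179.5, 188, 389 and 280.5, and in ACTB-1 to ACTB-4 at 287, 328, 333 and 260.4. The ACTB libraries were the closest together, and DPP4 held both the lowest and the highest value. The mean was 376 ± 252 for DPP4, 259 ± 98.0 for GFP and 302 ± 34.5 for ACTB (SD, n = 4).

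Cldn23, a claudin of the differentiated gut lining, was low in all 12 libraries, from 17.0 in DPP4-2 to 89.7 in ACTB-2, with a median of 25.2 normalized CPM. DPP4-1 at 89.2 and ACTB-2 stood above the other 10 libraries, which reached at most 50.4.

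Ocln was measured at 124, 129.7, 251 and 97.5 normalized CPM in DPP4-1 to DPP4-4. In GFP-1 to GFP-4 it stood at 165, 139.7, 114 and 158, and in ACTB-1 to ACTB-4 at 246, 159, 103 and 142. The GFP libraries, at 114 to 165, lay within the wider ranges of DPP4 and ACTB, and the 5 libraries that nearly lacked Cldn15 held 97.5 to 246. F11r ran from 99.8 in DPP4-2 to 371 in GFP-2 and Tjp1 from 100.4 in DPP4-2 to 421 in DPP4-3. The median was 212 for F11r and 189 for Tjp1. The mean of F11r was 182 ± 58.8 for DPP4, 237 ± 100 for GFP and 249 ± 63.5 for ACTB, and that of Tjp1 was 218 ± 145, 209 ± 23.8 and 145 ± 47.6 in the same order (SD, n = 4). In the 5 libraries that nearly lacked Cldn15, F11r was at 149 to 342 and Tjp1 at 109 to 220.4 normalized CPM.

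Levels were also divided by exon length to set the genes beside each other. Whether reads scale with exon length in these libraries was not checked, so orders and shares per kb are rough. Per kb, the medians over the 12 libraries were ordered as Cldn4 (224 normalized CPM per kb), Cldn3 (188), Cldn7 (146), F11r (79.7), Cldn2 (58.7), Cldn15 (44.6), Ocln (33.3), Tjp1 (24.2) and Cldn23 (13.6). Most neighbors in this order were not separated. Cldn4 exceeded Cldn3 in 6 of 12 libraries, Cldn3 exceeded Cldn7 in 5, F11r exceeded Cldn2 in 7, Cldn2 exceeded Cldn15 in 6 and Cldn15 exceeded Ocln in 6. The steps from Cldn7 to F11r and from Ocln to Tjp1 held in 10 of 12 libraries each and the step from Tjp1 to Cldn23 in 9.

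The claudin in first place depended on the library. Summed over the 6 claudins per kb, Cldn4 took the largest share in 6 of the 12 libraries, Cldn3 in 4 and Cldn7 in 2. Cldn4 held 70.6% in ACTB-3 but 1.68% in DPP4-1, where Cldn3 held 37.1% and Cldn15 31.0%. Cldn2 held 34.7% in GFP-1 and 31.7% in DPP4-4, and in the other 10 libraries between 2.51% and 16.8%.

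**Figure D2:**
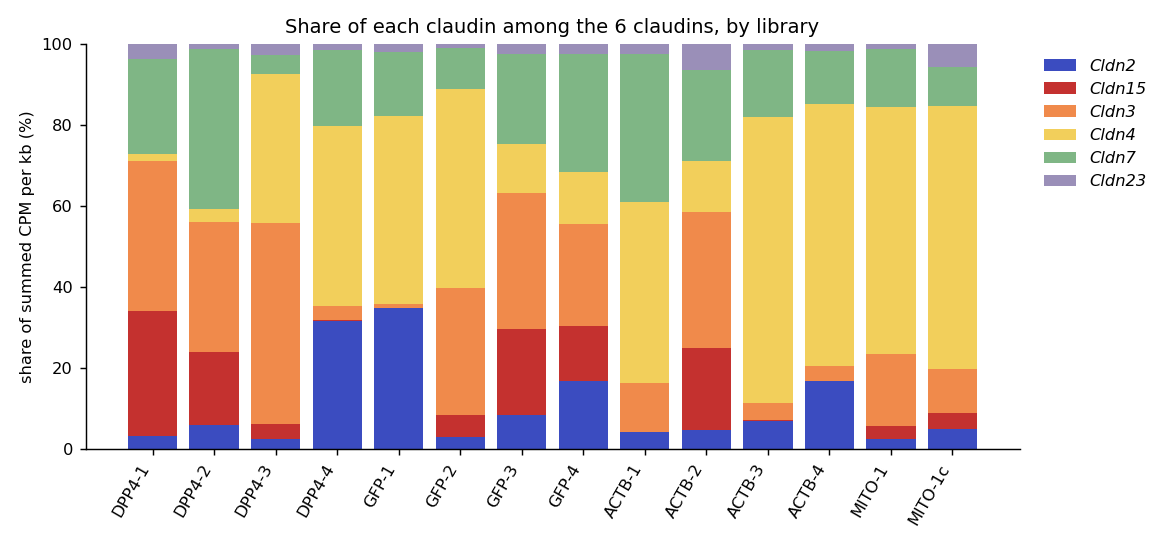
Share of each of 6 claudins in their summed CPM per kb of exon length, as stacked bars in percent for each of the 14 libraries. Cldn15 takes 31.0% in DPP4-1 and almost none of the bar in DPP4-4, GFP-1, ACTB-1, ACTB-3 and ACTB-4, while Cldn2 takes over 30% in DPP4-4 and GFP-1.

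The balance between the 2 pore-forming claudins swung widely within each bait. The log2 ratio of Cldn15 to Cldn2, with 0.5 counts added to each, was 2.68, 0.98, -0.13 and -9.19 in DPP4-1 to DPP4-4, -8.43, 0.29, 0.68 and -0.93 in GFP-1 to GFP-4, and -5.96, 1.49, -5.33 and -12.15 in ACTB-1 to ACTB-4. Cldn15 exceeded Cldn2 in counts in 5 libraries and fell below it in 7, and each bait had libraries on both sides. The mean log2 ratio was -1.41 ± 5.31 for DPP4, -2.10 ± 4.28 for GFP and -5.49 ± 5.58 for ACTB (SD, n = 4), and the SDs were larger than the differences between these means.

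The other claudins varied less against Cldn2. The log2 ratio of Cldn3 to Cldn2 ranged from -6.64 in GFP-1 to 2.91 in DPP4-3, that of Cldn4 from -1.76 to 3.24 and that of Cldn7 from -1.89 to 2.39. The mean ratio of Cldn4 to Cldn2 was -0.21 ± 2.24 for DPP4, 0.30 ± 2.00 for GFP and 1.68 ± 1.00 for ACTB (SD, n = 4), and it was above 0 in all 4 ACTB libraries but in only 1 library of each other bait. The neighbors Cldn3 and Cldn4 crossed as well. The log2 ratio of Cldn3 to Cldn4 ran from -6.18 in GFP-1 to 3.94 in DPP4-1, with 5 libraries above 0 and 7 below. These ratios are of counts, without regard to exon length, and per kb Cldn4 exceeded Cldn3 in 6 of 12 libraries.

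Across the 14 libraries, Cldn15 varied with Cldn3 (Spearman rho = 0.77) and against Cldn4 (rho = -0.68), and Cldn2 ran against Cldn3 (rho = -0.60). With the mean of each bait taken out of the 12 libraries of DPP4, GFP and ACTB, rho was 0.85, -0.66 and -0.66 for these pairs. Cldn2 and Cldn15 themselves were only weakly opposed, with rho = -0.22 over 14 libraries and -0.49 with bait means taken out. Cldn4 varied with F11r (rho = 0.69 over 14 libraries). These values describe libraries that differ in depth and in their sums of cell type markers, and they carry no test.

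**Figure D3:**
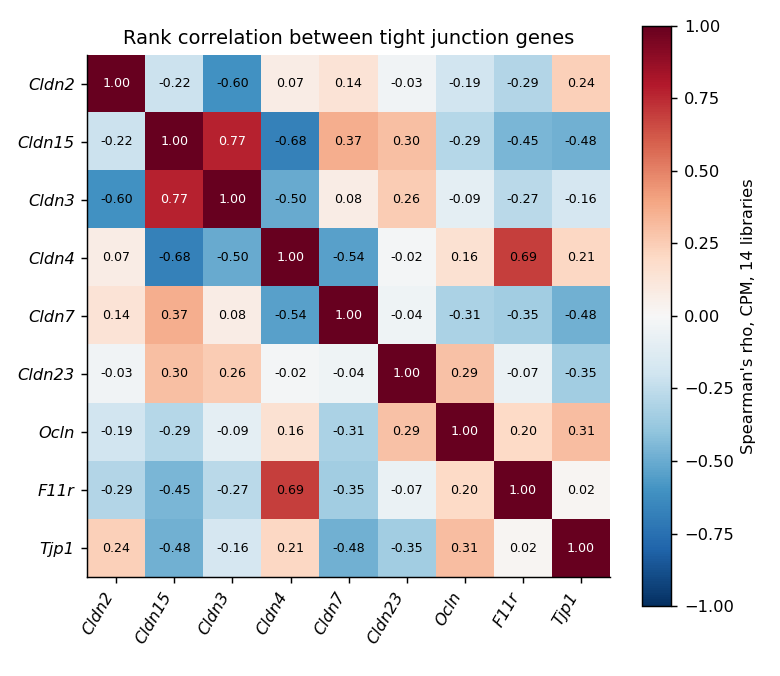
Spearman's rho between the CPM of each pair of the 9 genes over 14 libraries, with red for positive and blue for negative values. The highest values off the diagonal are 0.77 for Cldn15 with Cldn3 and 0.69 for Cldn4 with F11r, and the lowest is -0.68 for Cldn15 with Cldn4.

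Several cell type sums varied with Cldn15, Cldn3, Cldn4 and Cldn2, and some with F11r, Ocln and Tjp1. F11r followed the tuft cell (rho = 0.84) and general epithelial markers (rho = 0.67) over 14 libraries. Over the 12 libraries of the 3 baits in normalized CPM, these were 0.33 and 0.38. Ocln ran against the immune markers (rho = -0.63 over 14 libraries, -0.64 over 12). Tjp1 ran against the enterocyte markers over 14 libraries (rho = -0.53) but hardly over 12 (rho = -0.09). For Cldn7 and Cldn23 the values largest in size were weak, at rho = 0.38 and -0.40 over 14 libraries, both with the mesenchymal markers. Over 14 libraries, Cldn15 followed the 11 enterocyte markers (rho = 0.82) and the enteroendocrine markers (rho = 0.79), and it ran against the 8 fetal or regenerative markers (rho = -0.86), the tuft cell markers (rho = -0.76) and the general epithelial markers (rho = -0.75). Cldn3 followed the goblet cell and the enteroendocrine markers alike (rho = 0.88 for each) and the enterocyte markers (rho = 0.74), and it ran against the general epithelial (rho = -0.78) and the fetal or regenerative markers (rho = -0.73). Cldn4 followed the tuft cell (rho = 0.76), fetal or regenerative (rho = 0.75) and general epithelial markers (rho = 0.66). The fetal or regenerative sum rested mostly on Clu, which averaged 2122, 2089 and 13973 normalized CPM in DPP4, GFP and ACTB. All 8 of these markers had log2 fold changes above 0 in ACTB over GFP, with 0 called. The tuft cell sum was uneven, since Avil averaged 150 normalized CPM in ACTB beside 28.9 for Trpm5, the next highest. In ACTB over GFP the log2 fold change of Avil was 2.56, and those of the other 4 tuft cell markers were below 0. The general epithelial sum was uneven too, since the keratins Krt19, Krt18 and Krt8 averaged 2835, 1703 and 1327 normalized CPM in ACTB beside 222 for Vil1. In ACTB over GFP 6 of the 9 epithelial markers were above 0. The 3 below were Vil1 at -0.97, Cdx1 at -1.35 and Cdx2 at -0.54, so this sum mainly follows the keratins. No single cell type stood out for Cldn3 or Cldn4.

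Cldn2 followed the proliferation markers (rho = 0.69), the immune markers (rho = 0.49) and the crypt stem cell markers (rho = 0.39) over 14 libraries, and it ran against the goblet cell (rho = -0.62) and enterocyte markers (rho = -0.53). Its rho with the Paneth cell markers was 0.39 as well. Over the 12 libraries of the 3 baits in normalized CPM, rho of Cldn2 was 0.43 with proliferation, 0.27 with crypt stem cell and 0.33 with Paneth cell markers. It was 0.55 with the immune markers, which summed to only 8.50 to 73.6 normalized CPM. In the crypt stem cell sum Cd44 averaged 517, 337 and 385 normalized CPM in DPP4, GFP and ACTB, and Lgr5 22.6, 48.2 and 14.8.

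**Figure D4:**
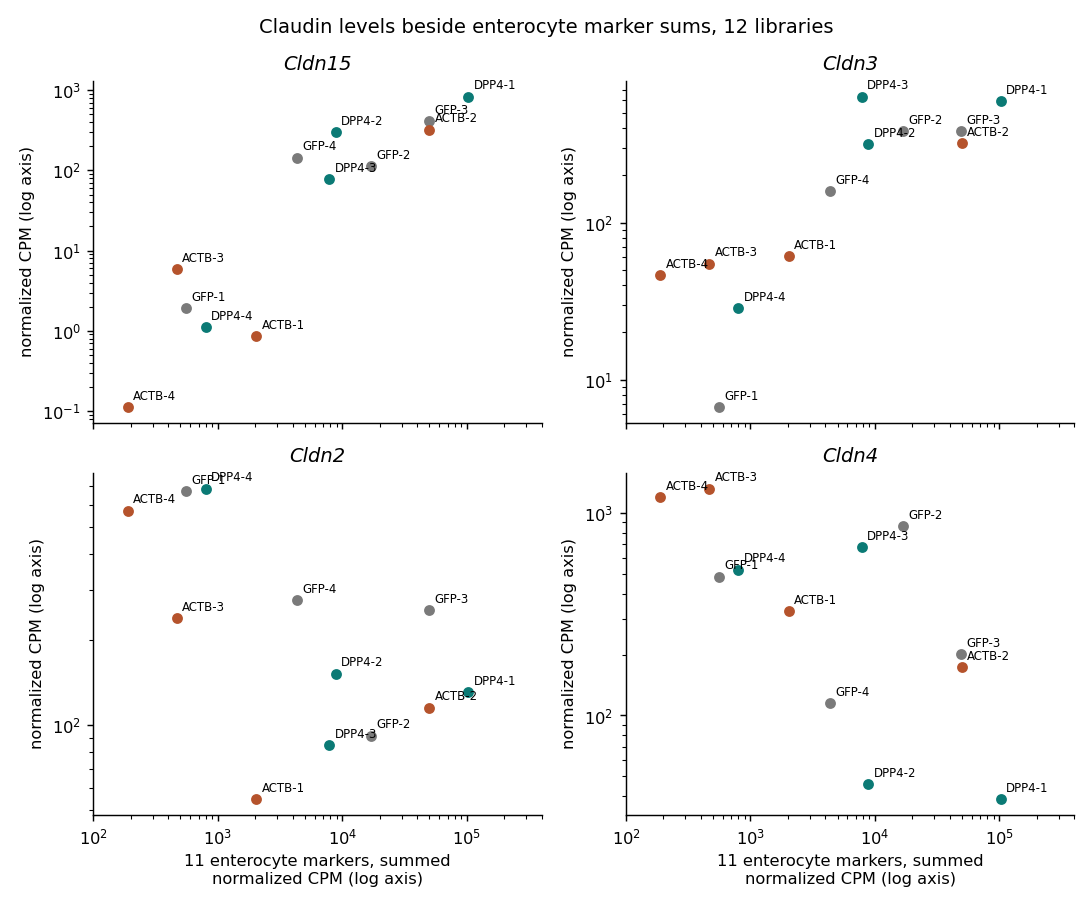
Normalized CPM of Cldn15, Cldn3, Cldn2 and Cldn4 (log axes) against the summed normalized CPM of 11 enterocyte markers (log axis), with 1 point per library colored by bait. Cldn15 is at 5.93 or less in the 5 libraries with the lowest sums and at 77.4 or more in the other 7, and Cldn2 is highest in DPP4-4, GFP-1 and ACTB-4.

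The genes whose CPM was most like that of Cldn15 over the 14 libraries, among 9751 genes that averaged 10 CPM or more, were Cd302, Cisd3, Hsd17b13, Nat8 and Trim31, with rho from 0.96 to 0.98. Those most like Cldn2 were Ide, Nek2, Mybl2, Tk1 and Agfg2, with rho from 0.85 to 0.91. Nek2, Mybl2 and Tk1 are genes of dividing cells, a mitotic kinase, a cell cycle transcription factor and a thymidine kinase. Over the 12 libraries without the mitochondrial bait, 3 of the 5 genes stayed for Cldn15 (Cd302, Cisd3 and Hsd17b13) but only Ide for Cldn2.

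In DPP4 over GFP, the apical against a cytoplasmic bait, no tight junction gene passed the test. The background was 0% of 26136 genes called by edgeR's quasi-likelihood test, for which the adjusted p had to fall below 0.05 and the log2 fold change to exceed 1 in size, and 5.87% at an unadjusted p under 0.05, while the libraries of both baits did not overlap for 1.94% of genes. DESeq2 on the same counts called 53 genes. Of the 9 genes 0 were called, 0 had an unadjusted p under 0.05 and 0 had libraries that did not overlap. Their median log2 fold change was 0.03, against 0.09 over all genes tested. The largest in size was Cldn15 at 0.79 (SE 1.77, adjusted p = 1.00), followed by Cldn3 at 0.71 (SE 1.05, adjusted p = 1.00) and Cldn23 at 0.66 (SE 0.65, adjusted p = 1.00), all by edgeR. Cldn7 was at 0.48 (SE 0.61), F11r at -0.42 (SE 0.55), Cldn4 at -0.40 (SE 0.92) and Cldn2 at -0.33 (SE 0.71). Ocln and Tjp1 were the nearest to 0, at 0.01 (SE 0.53) and 0.03 (SE 0.56). Single libraries decided the values of Cldn2 and Cldn4. Cldn2 was at -1.49 without DPP4-4 (unadjusted p = 0.041, adjusted p = 0.83 by edgeR) and at 0.31 without GFP-1, and Cldn4 was at -1.05 without DPP4-3 and at 0.25 without GFP-2.

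In ACTB over GFP, which sets the cytoplasmic baits against each other, no tight junction gene passed either. edgeR called 0% of 26470 genes, 5.61% had an unadjusted p under 0.05 and 1.8% had libraries that did not overlap, and DESeq2 called 73 genes. Of the 9 genes 0 met any of the 3 edgeR or overlap criteria. Their median log2 fold change was 0.09, against 0.11 over all genes. Cldn4 was at 0.86 (SE 0.73, unadjusted p = 0.263) and Tjp1 at -0.52 (SE 0.36, unadjusted p = 0.173), with adjusted p = 1.00 and 0.962 by edgeR. The channels Cldn15 and Cldn2 were at -0.92 (SE 2.33) and -0.39 (SE 0.71) and Cldn3 at -0.89 (SE 1.12), and the remaining 4 genes lay between 0.09 for F11r and 0.72 for Cldn23.

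In DPP4 over ACTB, again apical over cytoplasmic, edgeR called 0% of 27451 genes, 6.17% had an unadjusted p under 0.05 and 1.99% had libraries that did not overlap, and DESeq2 called 141 genes. Again 0 of the 9 genes met any of the edgeR or overlap criteria in this fit. With the replicate number as a block, 166 of 27451 genes were called, among them Cldn15 at 3.74 (adjusted p = 0.028 by edgeR), and whether the numbers pair the samples is not known. Without the block, the median log2 fold change of the 9 genes was 0.14, against 0.05 over all genes. Cldn3 had the smallest p of the 27 tests, with a log2 fold change of 1.66 (SE 0.86, unadjusted p = 0.0717, adjusted p = 0.864 by edgeR), and its DPP4 libraries lay at 28.6 to 635 against 46.3 to 319 for ACTB. Cldn15 was at 1.75 (SE 2.51) and Cldn4 at -1.17 (SE 0.95), with adjusted p = 1.00 by edgeR for both. Without ACTB-2, the ACTB library with the most Cldn15 and Cldn3, these became 7.04 for Cldn15 (SE 2.73, adjusted p = 0.487) and 2.86 for Cldn3 (SE 0.82, adjusted p = 0.159). Cldn2 was at 0.14 (SE 0.77), Tjp1 at 0.64 (SE 0.58), F11r at -0.44 (SE 0.54) and Ocln at -0.08 (SE 0.54). The 3 comparisons share libraries, so their values are not independent of each other.

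**Figure D5:**
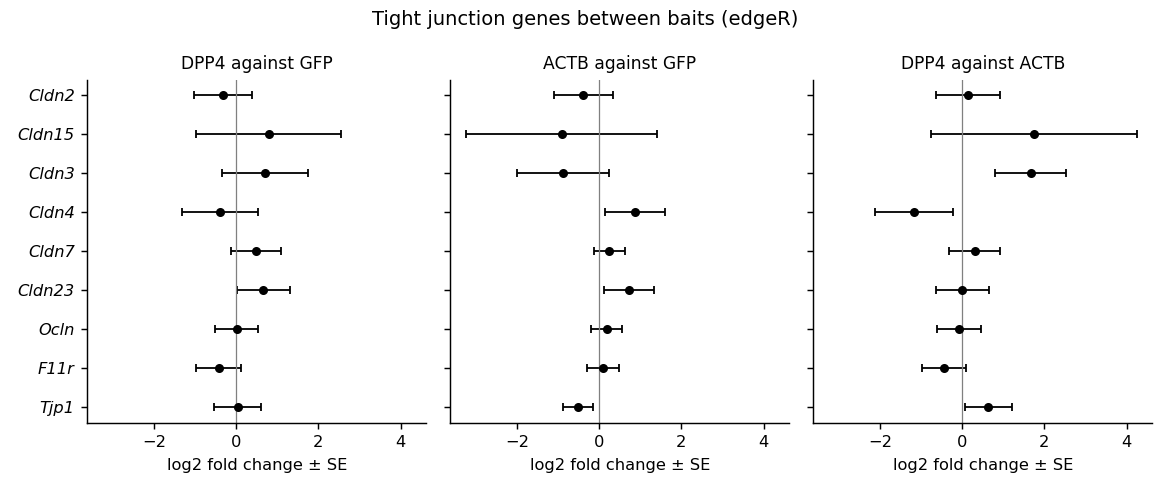
log2 fold change of the 9 genes in each of the 3 comparisons between baits, as points with bars of 1 SE from edgeR. The bars of Cldn15 are the widest, with SEs of 1.77 to 2.51, and no gene passed the threshold.

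These SEs set what could be seen. The share of the variation of log2 normalized CPM that lay between baits was 2.10% for Ocln, 3.28% for Cldn7, 4.67% for Cldn2 and 19.8% for Cldn15 and for Cldn4, against a median of 15.4% over the 9714 genes. F11r at 18.6% and Tjp1 at 18.1% were the other genes of the 4 above that median. With 4 libraries a bait, such a share lies above 0 even where baits do not differ. It was not corrected for this, so these shares alone show no difference between baits. In the 3 fits without a block, none of the differences seen here passed the test with 4 libraries a bait at this spread, which does not show that the levels were equal. Without DPP4-4 and GFP-4, the shallow libraries, 0 of the 9 genes were called as well. The log2 fold change of Cldn2 then became -1.54 (SE 0.79, unadjusted p = 0.0576, adjusted p = 0.859 by edgeR) in DPP4 over GFP in place of -0.33, and -1.02 in DPP4 over ACTB in place of 0.14.

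The other genes of the tight junction were counted as well. Of 54 further genes listed by role, 53 were found, and 46, 44 and 46 of them could be tested in the 3 comparisons as ordered above, of which 0 were called in each. At an unadjusted p under 0.05, 2 were higher and 1 lower in the first comparison, 1 higher and 2 lower in the second and 4 higher and 1 lower in the third, and the libraries did not overlap for 0, 0 and 1 gene. Over all genes tested, the shares at that p were 5.87%, 5.61% and 6.17% and those without overlap were 1.94%, 1.8% and 1.99%, so that these few genes are named as a description. Their median log2 fold changes were 0.20, 0.01 and 0.03, beside 0.09, 0.11 and 0.05 over all genes.

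By role, the most abundant of the other claudins was Cldn18, a claudin typical of stomach and lung. It was measured at 0.649, 0.402, 154 and 463 normalized CPM in DPP4-1 to DPP4-4. It stood at 555, 0.424, 110.1 and 122 in GFP-1 to GFP-4, and in ACTB-1 to ACTB-4 at 834, 171, 848 and 615. Libraries with nearly no Cldn18 (DPP4-1, DPP4-2 and GFP-2) were ones with Cldn15 at 112 or more, and the 5 libraries that nearly lacked Cldn15 had the 5 highest Cldn18 values. Its log2 fold change was 1.64 (SE 1.48, unadjusted p = 0.306, adjusted p = 1.00 by edgeR) in ACTB over GFP. Of the 17 other claudins found, 2 reached a mean of 10 normalized CPM.

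Cldn8, a claudin with sealing function, had the smallest p among these 53 genes. In DPP4-1 to DPP4-4 it was at 0.603, 7.31, 5.96 and 5.25 normalized CPM and in ACTB-1 to ACTB-4 at 0.0234, 0.034, 0.211 and 0. The DPP4 libraries all lay above the ACTB libraries, with 13 to 273 counts against 0 to 7, and the log2 fold change was 6.11 (SE 1.73, unadjusted p = 0.002, adjusted p = 0.806 by edgeR), a fitted value that depends on how counts of 0 are handled. In GFP-1 to GFP-4 it was at 5.25, 3.26, 0.0334 and 3.49, and ACTB over GFP gave an unadjusted p of 0.0213 (adjusted p = 0.814 by edgeR). Cldn9 had an unadjusted p of 0.00562 in the same comparison (edgeR) but rested on 4, 21, 0 and 11 counts in DPP4-1 to DPP4-4 and 0 in every ACTB library. In DPP4 over GFP the genes with an unadjusted p-value under 0.05 were also claudins with almost no reads, Cldn9 and Cldn6 above and Cldn22 below (adjusted p = 0.836 by edgeR for each), the last with 15 counts in GFP-1 and 0 in the other 7 libraries.

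Among the tricellular proteins, which seal the points where 3 cells meet, Lsr was the most abundant at a mean of 343 normalized CPM, and Ildr1 was at 1.07 to 17.2 in DPP4, 0 to 11 in GFP and 5.79 to 62.0 in ACTB. The log2 fold change of Ildr1 was 3.10 in ACTB over GFP (unadjusted p = 0.0431, adjusted p = 0.814 by edgeR) and -2.35 in DPP4 over ACTB (unadjusted p = 0.0127, adjusted p = 0.806). Among the plaque and polarity proteins, Arhgef11, a RhoA exchange factor, was at -1.29 in ACTB over GFP (unadjusted p = 0.0212, adjusted p = 0.814 by edgeR). The atypical protein kinases C Prkci and Prkcz were at 1.52 and 1.55 in DPP4 over ACTB (unadjusted p = 0.0248 and 0.027, adjusted p = 0.806 for both by edgeR) and complete the 4 higher genes of that comparison, named after their values were seen. The most abundant gene was Cxadr among the adhesion proteins at 219, Prkci among the polarity proteins at 148 and Ybx3 among the signaling proteins at 209.8 normalized CPM on average.

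The mitochondrial bait had no replicates, so its 2 libraries were set side by side without a test, in CPM of the library total. Cldn4 was the leading claudin in both, at 857 CPM in MITO-1 and 1121 CPM in MITO-1c. Cldn2 was at 62.6 and 152 CPM, with a log2 ratio of MITO-1 to MITO-1c of -1.28 (95% interval -1.38 to -1.18), and Cldn15 was at 53.6 and 81.9 CPM, with a ratio of -0.61 (95% interval -0.73 to -0.50). These intervals cover counting error only. The widest ratio belonged to Cldn23, at 16.9 and 100.1 CPM (log2 ratio -2.57, 95% interval -2.74 to -2.39), and the highest to F11r, at 467 and 246 CPM (log2 ratio 0.92, 95% interval 0.87 to 0.98). Over 14179 genes with at least 20 counts in both libraries together the median log2 ratio was -0.28 and the middle 90% lay between -6.31 and 3.49, so all 9 genes were inside that range. The log2 ratios of the other 5 genes lay between -1.02 for Ocln and 0.41 for Cldn3. F11r in MITO-1 and Cldn23 in MITO-1c lay above all 12 libraries of the other baits, and Cldn2 in MITO-1 lay below all 12.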

How the data were processed

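APEX-seq RNA was measured in 14 libraries of mouse sIOs, grouped by the bait and replicate number in their titles. The values are raw gene counts, which the authors deposited for all libraries in 1 table with 0 columns of other samples. Per the submitters' processing notes and the study's methods, the Nextera XT libraries went through FastQC 0.11.9, cutadapt 4.0 for trimming and STAR 2.7.9a for alignment to GRCm38. HTSeq 1.99.2 then counted reads by gene in its default mode, which drops reads of several places or several genes. The kit does not mark strand, and HTSeq's strand option is not named separately from that mode. Libraries made on different dates were corrected by the authors in a later step that the deposited counts precede. The dates are not in the labels, so no batch term could be fitted.

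Each comparison used the 8 libraries of 2 baits. A gene entered with 5 or more counts summed over them, totals were scaled by TMM, and the quasi-likelihood test of edgeR 4.0.16 in R 4.3.3 was run with Benjamini-Hochberg adjustment over all genes tested. Calls were genes whose adjusted p fell below 0.05 and whose log2 fold change exceeded 1 in size. DESeq2 1.42.0, other scalings and filters, a replicate block, 1 fit over 12 libraries and fits with libraries left out were the alternatives. The scripts were tested on simulated data. Levels are normalized CPM, or CPM of the total for the mitochondrial bait, and exon lengths are from GENCODE. Named genes are the 9 genes, any other tight junction gene called, up to 2 per comparison and direction with the smallest p, the most abundant of each list (1 of them is not reported here) and the 5 genes most like Cldn2 and Cldn15. The genes and lists were chosen with earlier results of these data known, the other tight junction genes included.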

Additional observations from a re-analysis of the deposited data

Results flagged for a closer look

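In the ACTB bait, ACTB-2 stood apart from the other 3 libraries for Cldn3. Its 319 normalized CPM compare with 46.3 to 61.4 in ACTB-1, ACTB-3 and ACTB-4, and the gap to the nearest of them made up 0.854 of the range on the log2 scale, above the limit for 4 samples. It was 1 of 45 such checks over the genes and claudin ratios in the 3 baits, and chance alone would pick about 1 in 20. ACTB-2 was also the ACTB library with the highest enterocyte marker sum.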

How the results depend on the processing

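The count of 0 calls by edgeR moved with the setting while the 9 genes stayed uncalled, except Cldn15 in 1 fit. DESeq2 called 53 genes in DPP4 over GFP (49 higher), 73 in ACTB over GFP (37 higher) and 141 in DPP4 over ACTB (108 higher), and no filter on low counts gave 6, 0 and 60. With the replicate number as a block the calls were 0, 0 and 166 (99 higher), and Cldn15 was called in DPP4 over ACTB at 3.74 (SE 0.98, adjusted p = 0.028 by edgeR). Whether the numbers pair the samples is not known. Correlations of same-numbered samples ran from -0.669 to 0.513, and 0, 1 and 2 of 4 samples correlated best with their own number. These correlations also take in the wide differences in marker sums between libraries, so they cannot exclude that same-numbered samples were prepared together. Leaving out 1 library gave 0 calls in DPP4 over GFP, 0 to 10 in ACTB over GFP and 0 to 56 in DPP4 over ACTB, the highest both without ACTB-2. Without ACTB-2, Cldn15 was at 7.04 (SE 2.73, adjusted p = 0.487 by edgeR) and Cldn3 at 2.86 (SE 0.82, adjusted p = 0.159) in DPP4 over ACTB.

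Of the 27 log2 fold changes 12 never changed sign. In DPP4 over GFP, scaling by library totals gave Ocln -0.23 and Tjp1 -0.21, the replicate block gave Cldn15 -0.47, Ocln -0.083 and Tjp1 -0.20, and leaving out DPP4-4 and GFP-4 gave Tjp1 -0.039. That last setting gave F11r -0.036 in ACTB over GFP, and Cldn2 -1.02, Cldn23 0.25 and Ocln 0.075 in DPP4 over ACTB. In DPP4 over ACTB, Cldn2 was -0.14 with library totals and Cldn23, at the main value nearest to 0, was 0.075 with DESeq2 and with RLE size factors, 0.027 with filterByExpr and 0.0082 with the block. Library totals moved the median of all genes to -0.08, 0.13 and -0.21 in the 3 comparisons. The signs that turned with 1 library left out gave ranges in DPP4 over GFP of -1.49 to 0.31 for Cldn2, -0.42 to 1.72 for Cldn15, -1.05 to 0.25 for Cldn4, -0.37 to 0.16 for Ocln and -0.51 to 0.27 for Tjp1. In ACTB over GFP the ranges were -1.21 to 0.26 for Cldn2, -6.15 to 0.034 for Cldn15, -0.0074 to 1.07 for Cldn23, -0.060 to 0.32 for Ocln and -0.089 to 0.40 for F11r. In DPP4 over ACTB they were -1.02 to 0.98 for Cldn2, -0.041 to 0.55 for Cldn7, -0.54 to 0.74 for Cldn23, -0.58 to 0.15 for Ocln and -0.039 to 0.88 for Tjp1. Of the 5 genes most like Cldn2 and Cldn15, 1 and 3 stayed over 12 libraries. The causes were not tested. With 0.5 or 2 counts added, 0 of 18 mean claudin ratios moved by more than their SD.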
